A study of Mus musculus with 4 samples.

Results

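The 10 genes described here regulate or mark stem cells of the mouse hair follicle, and they were measured by RNA sequencing in sorted cells of a mouse model of melanoma. They are the R-spondin receptors Lgr5 and Lgr6, the surface protein gene Cd34, and the transcription factor genes Sox9, Lhx2, Tcf7l1, Tcf7l2, Nfatc1, Foxc1 and Tbx1. The 10 genes were taken by name from a list of bulge and isthmus genes. The rule uses no measured value, but the list was drawn up with earlier results of these data known. All 10 were found among the 22524 genes of the count tables, and all 10 were among the 14265 genes with enough counts to be tested. The cells came from dermal hyperplasia, a stage before tumours, and were collected by flow sorting for tdTomato, a red fluorescent protein. In all the mice the tdTomato reporter lay in the Rosa26 locus behind a stop cassette, tamoxifen activated the recombinase CreERT2 under the promoter of the tyrosinase gene Tyr, and the same promoter drove the oncogene NrasQ61K. The 2 libraries named Ezh2Y646N came from mice that also carried the mutant histone methyltransferase Ezh2Y646N behind a stop cassette in the ColA1 locus, and the 2 named NrasQ61K from mice without it. Neither the animals' age and strain nor whether the numbered libraries are separate animals is given in the sources used here, so p-values measure only the spread between these libraries. Pairs of values are given in the order replicate 1 and replicate 2. The comparison asks how Ezh2Y646N libraries differ from NrasQ61K libraries.

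The libraries held 14808801 to 20600297 counts. Ezh2 and Nras RNA did not differ detectably, with log2 fold changes of -0.11 and -0.07, and since a count per gene adds mutant and endogenous RNA, neither gene checks the labels. All 10 genes of the melanocyte marker list were detected in every library, with a summed level of 2656 to 3970 CPM (counts divided by library size, on the usual scale), and the melanin enzyme gene Dct was at 1486 to 2757 CPM. The 8 basal keratinocyte markers summed to 10189 to 24131 CPM, led by Krt5, so keratinocyte RNA was abundant in libraries sorted for a melanocyte promoter. Where the 10 stem cell genes were transcribed, in follicle epithelium or in labelled cells, was not measured. In such bulk samples fewer cells of a type and less RNA per cell cannot be told apart.

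The hair follicle keeps its epithelial stem cells in the bulge, in the hair germ beneath it and in the isthmus above it. Bulge cells rest for long periods under BMP signals and are set in motion by Wnt signals, after which their progeny build the hair shaft and the sheaths around it. Lgr5 and Lgr6 bind R-spondins, secreted proteins that raise a cell's sensitivity to Wnt, and mark cells of the lower bulge and hair germ (Lgr5) and of the isthmus (Lgr6). TCF7L1 and TCF7L2 bind Wnt target genes and partner with beta-catenin. SOX9 and LHX2 maintain bulge identity, NFATC1 and FOXC1 hold bulge cells at rest, and TBX1 supports their self-renewal. Melanocyte stem cells share the same niche. EZH2 is the methyltransferase of the Polycomb repressive complex 2, which marks histone H3 and in mammals is found mainly at promoters rich in CG dinucleotides.

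The promoters of Lgr6 and Cd34 are shown because these 2 of the 10 genes had the smallest p-values, in opposite directions, and because their CG content differs. Any link between CG content and direction of change was not tested. The sequences are RefSeq's on GRCm38.p6, 5′ to 3′ on the strand of the gene, with each CG dinucleotide in capitals. The Lgr6 stretch is chr1:135105277-135105526 on the minus strand, the 250 bases before the start. The Cd34 stretch is chr1:194938571-194938818 on the plus strand, cut to the 248 bases before the first annotated exon.
Lgr6: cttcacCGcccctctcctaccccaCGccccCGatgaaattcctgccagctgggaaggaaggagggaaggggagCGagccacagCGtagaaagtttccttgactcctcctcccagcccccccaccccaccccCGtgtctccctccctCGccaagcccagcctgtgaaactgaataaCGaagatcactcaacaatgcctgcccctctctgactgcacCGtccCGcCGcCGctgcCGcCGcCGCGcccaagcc
Cd34: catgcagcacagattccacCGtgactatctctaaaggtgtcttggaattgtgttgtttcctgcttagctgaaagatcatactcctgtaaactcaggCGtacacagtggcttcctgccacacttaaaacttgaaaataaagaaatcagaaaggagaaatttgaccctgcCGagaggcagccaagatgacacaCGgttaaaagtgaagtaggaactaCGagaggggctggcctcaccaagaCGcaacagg

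The Lgr6 stretch held 16 CG dinucleotides and the Cd34 stretch 6. Of 32841 promoter windows of 250 bases in the same table, 25.4% held at least as many as Lgr6 and 50.4% at least as many as Cd34, and the median was 6. Of the 10 genes 7 were in the table, with 10 windows in all, and their median was 20.5. Lgr5, Sox9 and Nfatc1 had no window there. Tcf7l2 had the highest count, 30 at 1 of its 2 starts, while Tcf7l1 and Foxc1 had 29 each and Lhx2 25 and 24. Of these 7 genes Cd34 had the fewest CG dinucleotides, and the other 6 each had a window above the median of all promoters. Motif letters were searched on both strands. The TCF/LEF letters CTTTGAT or CTTTGTT were found in 1 of the 10 windows, at the other Tcf7l2 start, and in 8.06% of all windows. The SOX letters AACAAT were found in the Lgr6 window and in 1 Tcf7l2 window, against 9.43% of all windows, and the NFAT letters GGAAA in 5 of 10 windows, against 55.6%. The LIM homeobox letters TAATTA (4.84% of all windows), the FOX letters TGTTTAC (3.17%) and the T-box letters GGTGTGA (3.33%) were in none of the 10. Such matches describe letters and show no binding.

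Cd34 fell in the libraries named Ezh2Y646N, by 2.89-fold. Lgr6 had the opposite and largest difference of the 10 genes, 3.50-fold higher, without passing the threshold. In edgeR's quasi-likelihood test, at an adjusted p under 0.05 over all genes tested, 1 of the 10 genes was lower and 0 were higher, where 0.673% of all tested genes were lower and 1.10% higher. At an unadjusted p under 0.05 there were 3 of 10, Lgr6, Sox9 and Cd34, where the share of all genes was 14.3%. The 2 groups did not overlap for 6 of the 10 genes, against 44.2% of all genes, which is 2 genes higher (Lgr6 and Nfatc1) and 4 lower (Sox9, Cd34, Tcf7l1 and Tcf7l2). The median log2 fold change of the 10 genes was -0.38, with 4 above 0 and 6 below, against -0.04 over all genes tested. That median was 0.29 without NrasQ61K replicate 2, so its sign rested on that library. DESeq2 called 1 of the 10 genes higher (Lgr6) and 2 lower (Cd34 and Sox9). Over the 18725 genes with a DESeq2 p-value, it called 505 higher and 378 lower.

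**Figure D1:**
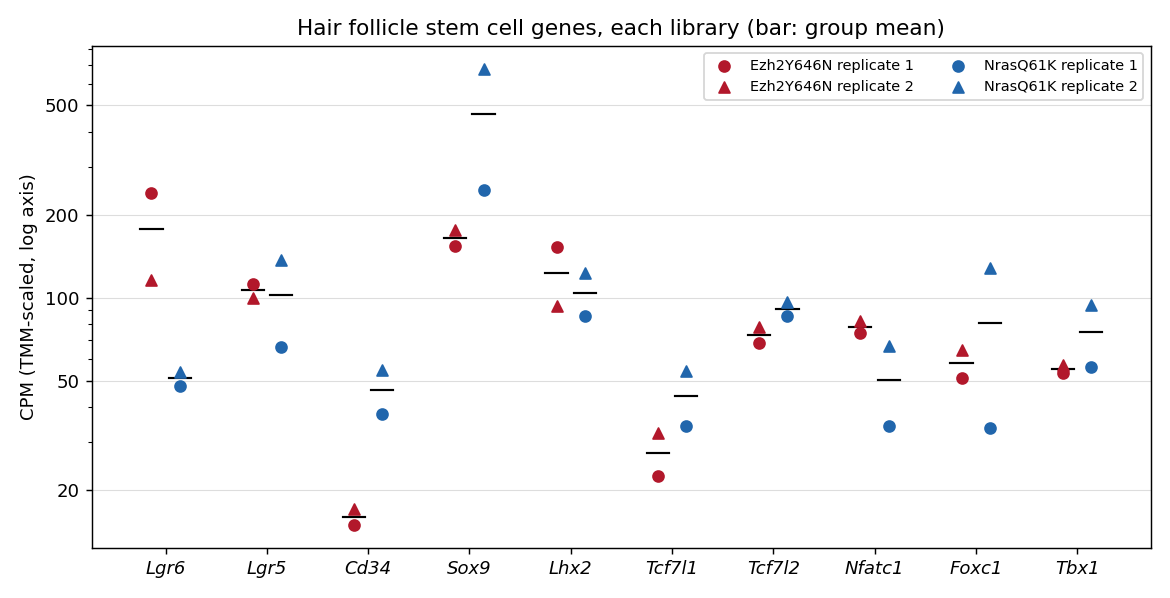
CPM of the 10 genes on a log axis, with 1 point per library (red, Ezh2Y646N; blue, NrasQ61K; circles, replicate 1; triangles, replicate 2) and a bar at each group mean. For Lgr6 and Nfatc1 both red points lie above both blue points, for Cd34, Sox9, Tcf7l1 and Tcf7l2 both lie below, and the blue triangle is the highest point for 7 of the 10 genes.

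Lgr6 (ENSMUSG00000042793, chromosome 1, 134983301 to 135105276) was at 240.5 and 115.6 CPM in the Ezh2Y646N libraries and at 47.8 and 53.9 CPM in the NrasQ61K libraries. Even the lower Ezh2Y646N library was above both NrasQ61K libraries, and the spread lay within the Ezh2Y646N group. The group means were 178 ± 88.3 and 50.9 ± 4.29 CPM (SD, n = 2 each), 3.50-fold apart. Its log2 fold change (± SE) of 1.81 ± 0.35 lay just outside the threshold, at an adjusted p of 0.0507 in edgeR. With all 4 libraries Lgr6 passed in DESeq2 (adjusted p = 1.6e-05) but not in voom (0.0604). In edgeR it passed with a stricter filter on low counts (0.0494), with no filter (1.15e-08) and with the replicate block (2.36e-05). It did not pass in edgeR with RLE size factors (0.0538) or a fit that was not robust (0.0518). Nor did it pass there without small RNA, haemoglobin and mitochondrial genes (0.0509). The log2 fold change was 1.18 without Ezh2Y646N replicate 1 and 2.24 without Ezh2Y646N replicate 2. Of the 9 suprabasal epidermis markers measured 4 rose and 5 did not pass, all 9 with fold changes above 0, and they had summed levels of 42472 and 30234 CPM in the Ezh2Y646N libraries against 3425 and 8904, and Krt10, the main keratin of that layer, was 6.87-fold higher (adjusted p = 0.0514). Their part in the Lgr6 result was not tested.

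Lgr5 (chromosome 10, 115450311 to 115587780), the related receptor of the hair germ, was at 112.6 and 100.2 CPM in the Ezh2Y646N libraries and at 66.2 and 137.7 CPM in the NrasQ61K libraries. The NrasQ61K libraries lay on either side of the Ezh2Y646N pair. Its log2 fold change (± SE) was 0.06 ± 0.34 (edgeR's adjusted p = 0.962). Leaving out NrasQ61K replicate 2 gave 0.73 and leaving out NrasQ61K replicate 1 gave -0.37. Per length, the ratio of Lgr6 to Lgr5 RNA within a library was 3.20 and 1.73 in the Ezh2Y646N libraries and 1.08 and 0.587 in the NrasQ61K libraries. The groups did not overlap in this ratio, and an exact permutation test of 2 libraries against 2 cannot give a two-sided p below 0.333.

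Rspo4 and Rspo1, which encode ligands of these receptors, fell. In the list of 15 other genes of the R-spondin receptor pathway, 3 fell, 0 rose and 12 did not pass, with 13 below 0 and a median log2 fold change of -0.53. Rspo4, one of the 4 R-spondins, was at 0.575 and 0.691 CPM in the Ezh2Y646N libraries and at 19.8 and 13.3 CPM in the NrasQ61K libraries, a log2 fold change (± SE) of -4.70 ± 0.45 (edgeR's adjusted p = 0.022). Rspo1 was at 1.49 and 2.07 CPM against 10.8 and 8.78, a log2 fold change (± SE) of -2.46 ± 0.43 (adjusted p = 0.0418). The Wnt receptor gene Fzd1 was at 57.6 and 50.4 CPM against 157.2 and 159.6, a log2 fold change (± SE) of -1.55 ± 0.22 (adjusted p = 0.0293). Rspo1 and Fzd1 lost their calls without either Ezh2Y646N library, and Rspo1 also in voom and without NrasQ61K replicate 1. Lgr4, the third receptor of the family, was at 105.7 and 94.3 CPM against 185.7 and 210.4, with a log2 fold change of -0.99 that did not pass (adjusted p = 0.0729). The ubiquitin ligase genes Znrf3 and Rnf43, whose products R-spondins remove from the cell surface, had log2 fold changes of -0.28 and 0.00. Of the 10 dermal papilla markers, which include Rspo4, 2 fell and 8 did not pass, with summed levels of 75.0 and 34.3 CPM against 279.3 and 153.5. Their part in the R-spondin values was not tested.

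**Figure D2:**
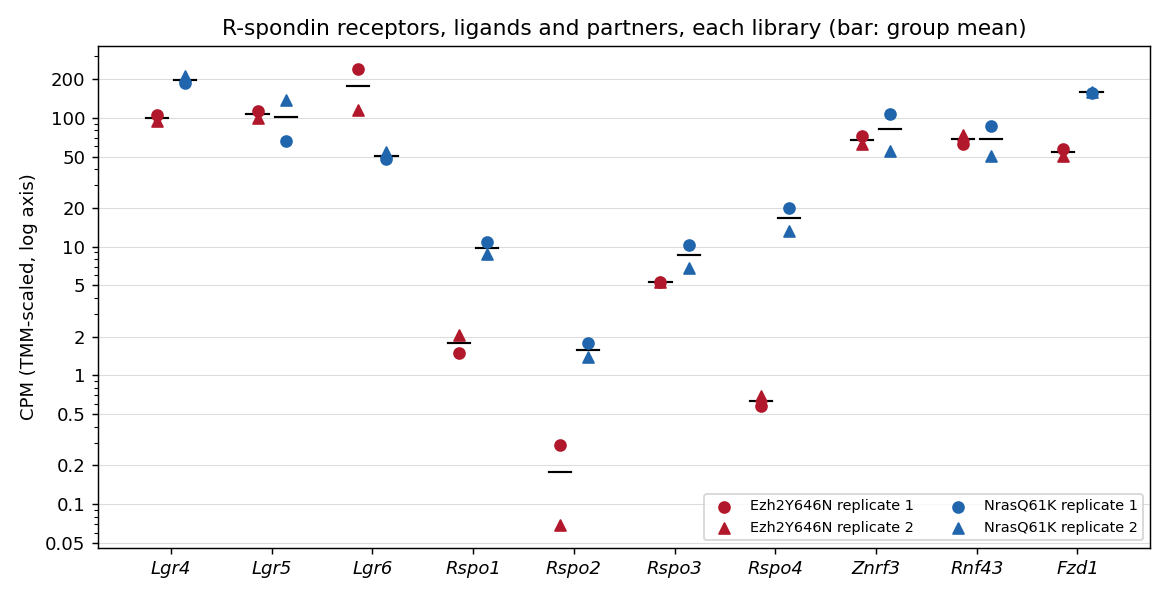
CPM on a log axis of the 3 R-spondin receptor genes, the 4 R-spondins and 3 partners, with 1 point per library and a bar at each group mean. Lgr6 is higher in both Ezh2Y646N libraries, Lgr5 overlaps, and Lgr4, Rspo1, Rspo2, Rspo3, Rspo4 and Fzd1 are lower in both.

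Cd34 (chromosome 1, 194938819 to 194961279) encodes a surface sialomucin used to isolate mouse bulge cells, and it is also made by endothelium, fibroblasts and mast cells. It was at 14.9 and 17.1 CPM in the Ezh2Y646N libraries and at 37.7 and 54.7 CPM in the NrasQ61K libraries. The Ezh2Y646N libraries were close together and well under both NrasQ61K libraries. The group means were 16.0 ± 1.496 and 46.2 ± 12.1 CPM (SD, n = 2 each), 2.89-fold apart, with a log2 fold change (± SE) of -1.53 ± 0.28 (edgeR's adjusted p = 0.0461). The call was lost in edgeR with RLE size factors (adjusted p = 0.0516), in voom (0.0527) and without Ezh2Y646N replicate 1 or replicate 2. The log2 fold change stayed between -1.78 and -1.19 over all 12 alternatives. Cd34 shares 148 exonic bases with the antisense gene Gm16897, and the strand setting of the counting is not given in the sources used here.

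Markers of the other cells that make Cd34 had lower summed levels in both Ezh2Y646N libraries, though few passed the test. Of the 10 fibroblast markers 1 fell, 0 rose and 9 did not pass in edgeR. Of the same 10, 7 had an unadjusted p under 0.05 (6 lower and 1 higher) and 9 were below 0. The fibroblast list had a median log2 fold change of -1.15 and summed levels of 916 and 2129 CPM against 4109 and 2407. Of the 10 endothelial markers 0 passed in edgeR and 4 had an unadjusted p under 0.05, while 10 were below 0, with a median of -0.76 and summed levels of 174.5 and 105.7 CPM against 275.2 and 253.6. The 8 mast cell and haematopoietic markers summed to 5.52 and 7.94 CPM against 9.48 and 27.9, with the mast cell receptor gene Fcer1a at 0 in all 4 libraries and only Ptprc and Cd3e tested. Of those 2 genes 0 passed in edgeR and 1 had an unadjusted p under 0.05. Their part in the Cd34 result was not tested. Among all genes tested, those whose log2 CPM over the 4 libraries, centred on their own mean, lay closest to Cd34 were Mmp11 (distance 0.126), Tbc1d30 (0.151) and Sfrp1 (0.154), as a description over 4 libraries. Sfrp1, a secreted Wnt inhibitor of the bulge, was at 86.0 and 94.1 CPM against 183.3 and 273.6, a log2 fold change of -1.34 that did not pass (adjusted p = 0.0507).

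Sox9 (chromosome 11, 112782224 to 112787760), which specifies the outer root sheath and bulge, was at 154.2 and 175.9 CPM in the Ezh2Y646N libraries and at 247.3 and 680.1 CPM in the NrasQ61K libraries. Both Ezh2Y646N libraries were lower than both others, and NrasQ61K replicate 2 stood far above replicate 1. Its log2 fold change (± SE) of -1.49 ± 0.44 did not pass (edgeR's adjusted p = 0.154). Leaving out NrasQ61K replicate 2 gave -0.54, and leaving out NrasQ61K replicate 1 gave -2.04. Both of these fits take their spread from the Ezh2Y646N pair alone. With all 4 libraries Sox9 passed in DESeq2 (0.00449), with no filter on low counts (1.33e-05) and with the replicate block (0.00162). The 4 markers of the outer root sheath's companion layer were all below 0. They summed to 1118 and 1344 CPM against 1817 and 4153, with the highest sum in the same NrasQ61K replicate 2. Of the 4 markers, 3 were higher in NrasQ61K replicate 2 than in replicate 1, and 1 was lower. Their part in the Sox9 values was not tested.

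Lhx2 (chromosome 2, 38339281 to 38369733), a LIM homeobox factor of the bulge, was at 152.5 and 93.4 CPM in the Ezh2Y646N libraries and at 85.7 and 122.9 CPM in the NrasQ61K libraries. The groups overlapped. Its log2 fold change (± SE) was 0.24 ± 0.30 (edgeR's adjusted p = 0.824), and -0.16 without Ezh2Y646N replicate 1. Per length, the ratio of Sox9 to Lhx2 was 1.07 and 2 in the Ezh2Y646N libraries against 3.07 and 5.88 in the NrasQ61K libraries, which did not overlap.

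Neither TCF gene passed, and both lay below their NrasQ61K levels in both Ezh2Y646N libraries. Tcf7l1 (chromosome 6, 72626378 to 72789254), which mostly represses Wnt targets in resting bulge cells, was at 22.5 and 32.2 CPM against 34.2 and 54.0 in the NrasQ61K libraries. The upper Ezh2Y646N library lay just under the lower NrasQ61K library, and the log2 fold change was -0.69 ± 0.31 (SE; edgeR's adjusted p = 0.377). Tcf7l1 shares 179 exonic bases with the antisense gene Gm15401. As the strand setting of the counting is not given, whether this overlap affects the Tcf7l1 counts is not known. Tcf7l2 (chromosome 19, 55741820 to 55933654) was at 68.6 and 78.2 CPM against 85.6 and 96.4, with gaps of only 0.19 and 0.17 on the log2 scale within the groups. It had a log2 fold change (± SE) of -0.31 ± 0.22 (adjusted p = 0.627). Per length, the ratio of Tcf7l2 to Tcf7l1 ran from 0.799 to 1.36 and the groups overlapped.

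Of the 14 genes listed as TCF/LEF and beta-catenin partners 0 passed in edgeR and 1 had an unadjusted p under 0.05, and 12 were below 0 with a median log2 fold change of -0.09. That 1 gene was Lef1, the TCF family factor of the hair germ and matrix, at 89.0 and 62.6 CPM against 386.7 and 98.9. Its level in NrasQ61K replicate 1 was far above the other 3 libraries, and its log2 fold change of -1.68 (adjusted p = 0.206) was -0.38 without that library, while DESeq2 called it with all 4 (0.00755). The corepressor gene Tle3 was at 188.1 and 216.8 CPM against 378.1 and 241.4 (adjusted p = 0.375).

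The 3 factors tied to rest and self-renewal gave no call. Nfatc1 (chromosome 18, 80606205 to 80713071), which restrains bulge cell division, was at 74.2 and 82.3 CPM in the Ezh2Y646N libraries and at 34.1 and 66.8 CPM in the NrasQ61K libraries. Both Ezh2Y646N libraries were higher than both others, with a log2 fold change (± SE) of 0.63 ± 0.33 (edgeR's adjusted p = 0.460). Leaving out NrasQ61K replicate 2 gave 1.24, and leaving out NrasQ61K replicate 1 gave 0.23. Foxc1 (chromosome 13, 31806633 to 31812476), which acts upstream of Nfatc1 in bulge cells, was at 51.0 and 64.7 CPM against 33.6 and 128.2. Its NrasQ61K libraries differed by 1.93 on the log2 scale, the widest gap within a group among the 10 genes, and lay on either side of the Ezh2Y646N pair. Its log2 fold change (± SE) of -0.49 ± 0.53 (adjusted p = 0.791) became 0.83 with NrasQ61K replicate 2 left out, and -1.15 with NrasQ61K replicate 1 left out. Tbx1 (chromosome 16, 18580979 to 18590671) was at 53.5 and 56.9 CPM against 56.0 and 93.8, with a log2 fold change (± SE) of -0.44 ± 0.29 (adjusted p = 0.579) that was 0.02 without NrasQ61K replicate 2.

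Genes of the BMP and calcineurin pathways, which act on NFATC1 in the bulge, gave 0 calls among 20 tested in edgeR. Of these, 7 had an unadjusted p under 0.05, 5 lower and 2 higher, and the median log2 fold change was -0.33. The members of smallest p were Id2, a BMP response gene, at 35.9 and 31.3 CPM against 90.6 and 63.3 (log2 fold change -1.19, adjusted p = 0.0711), and the ligand gene Bmp6, at 3.51 and 1.73 CPM against 8.91 and 9.21 (-1.78, adjusted p = 0.117). The 2 higher genes of the 7 were Grem1 and Rcan1. Grem1 was at 60.5 and 36.8 CPM against 5.2 and 18.4 (log2 fold change 2.03, edgeR's adjusted p = 0.125). Rcan1 was at 86.4 and 82.1 CPM against 32.0 and 53.9 (0.97, adjusted p = 0.158). Calcineurin's catalytic subunit genes Ppp3ca, Ppp3cb and Ppp3cc had log2 fold changes of 0.02, -0.40 and -0.71, none past the threshold. Ppp3cc was at 7.82 and 6.84 CPM against 11.8 and 12.2, with no overlap between the groups (unadjusted p = 0.059 in edgeR, adjusted p = 0.378).

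**Figure D3:**
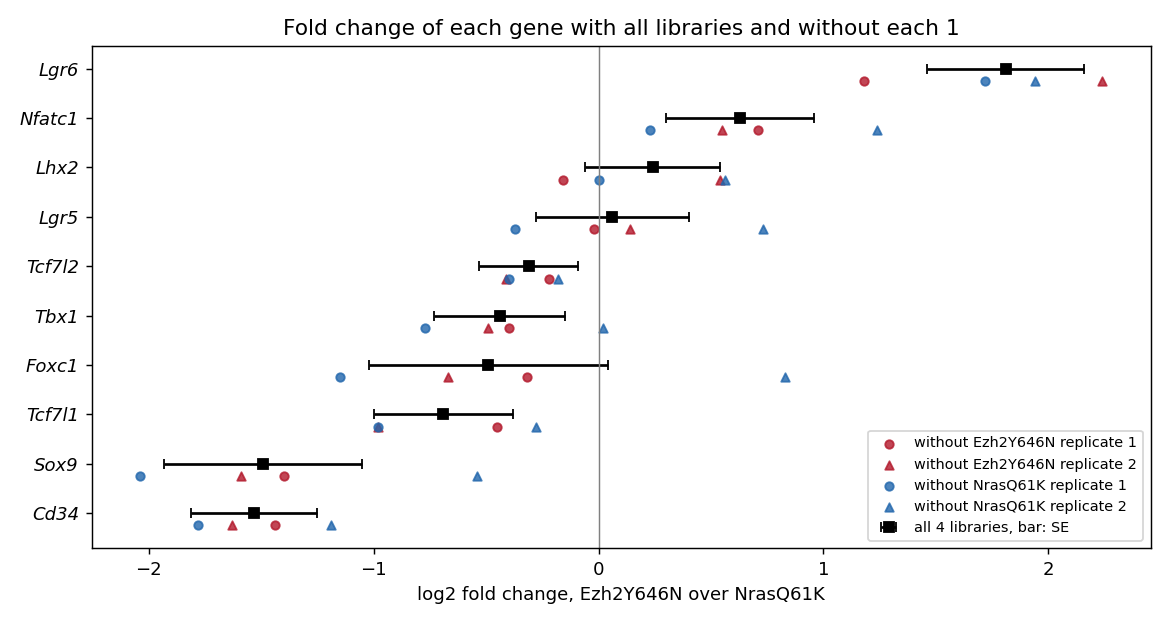
Log2 fold change of Ezh2Y646N over NrasQ61K for each of the 10 genes with all 4 libraries (squares, with the SE as a bar) and with each library left out (coloured points). Cd34, Sox9, Tcf7l1 and Tcf7l2 stay below 0 and Lgr6 and Nfatc1 above 0 in every case. These are the genes whose groups did not overlap, so leaving out a library could hardly change their sign. Foxc1 runs from -1.15 without NrasQ61K replicate 1 to 0.83 without NrasQ61K replicate 2.

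Of the 10 genes, 7 had their highest CPM in NrasQ61K replicate 2, where 22.4% of all genes tested had theirs. The lowest value was in NrasQ61K replicate 1 for 5 genes (Lgr5, Lgr6, Lhx2, Nfatc1 and Foxc1) and in Ezh2Y646N replicate 1 for the other 5. Of all genes tested, 29.8% were lowest in NrasQ61K replicate 1 and 24.6% in Ezh2Y646N replicate 1. The median gap between the NrasQ61K libraries was 0.70 on the log2 scale for the 10 genes and 0.37 for all genes tested. Between the Ezh2Y646N libraries it was 0.19 for the 10 genes and 0.29 for all genes. All 10 genes were higher in NrasQ61K replicate 2 than in replicate 1, as were 7186 of the 14265 genes tested. Of the 11 isthmus and sebaceous genes 9 were higher in NrasQ61K replicate 2 than in replicate 1 and 2 were lower. Their summed levels were 1197 CPM in replicate 1 and 3140 in replicate 2, most of that gap from the keratin gene Krt79 of the upper follicle, at 370 and 1775 CPM. Of the 14 hair germ and matrix regulators 11 were higher in replicate 1 and 3 in replicate 2, with summed levels of 2639 and 1426 CPM.

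The order of the levels per length was headed by Sox9 in all 4 libraries, at 37.3 and 42.5 RPKM (CPM per kilobase of exon) in the Ezh2Y646N libraries and at 59.8 and 164.5 in the NrasQ61K libraries. Lhx2 came second by its mean over the 4 libraries (25.9 RPKM), followed by Tbx1 (18.5), Lgr6 (16.7), Foxc1 (11.9), Lgr5 (10.2), Tcf7l2 (9.37), Tcf7l1 (9.10) and Nfatc1 (8.62). Cd34 was last at 4.27 RPKM and ranked 9 or 10 in every library. From Lhx2 to Cd34, the ranges of neighbouring genes over the libraries overlapped, so neighbours in this order did not differ beyond their spread. Lgr6 changed place most between the groups, ranking 2 and 3 in the Ezh2Y646N libraries and 6 and 9 in the NrasQ61K libraries.

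**Figure D4:**
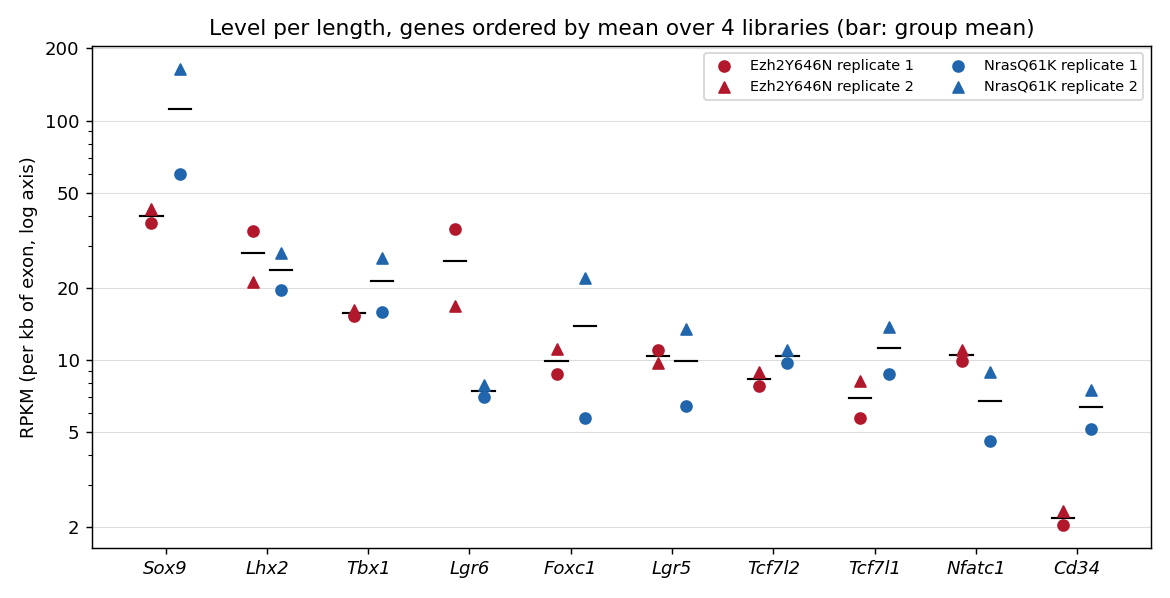
RPKM of the 10 genes on a log axis, ordered by the mean over 4 libraries, with 1 point per library and a bar at each group mean. Sox9 is the highest gene in each library, and Lgr6 lies at 35.1 and 16.9 RPKM in the Ezh2Y646N libraries against 6.98 and 7.87.

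Other genes of the bulge and outer root sheath moved in both directions without a call. Of 18 listed, 0 passed in edgeR, 8 had an unadjusted p under 0.05 (6 lower and 2 higher), and the median log2 fold change was -0.07. The bulge keratin gene Krt15 was at 1573 and 2434 CPM against 580 and 2102, overlapping between the groups. In the isthmus, junctional zone and sebaceous gland list 1 of 11 rose, 0 fell and the median was -0.43. The gene that rose was Scd1, a fatty acid desaturase of sebocytes, at 1105 and 1148 CPM against 353 and 366, a log2 fold change (± SE) of 1.65 ± 0.25 (edgeR's adjusted p = 0.0306), and its call was lost without either Ezh2Y646N library. Prdm1, a repressor in the sebaceous gland, was at 19.3 and 14.4 CPM against 84.6 and 26.9 (adjusted p = 0.148).

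Of the 14 hair germ and matrix regulators 0 passed in edgeR, 6 had an unadjusted p under 0.05 (5 lower and 1 higher), and the median log2 fold change was -0.41. The homeobox gene Msx1 was at 6.95 and 4.01 CPM against 76.8 and 20.5, a log2 fold change (± SE) of -3.14 ± 0.62 (adjusted p = 0.0525), and Gata3, a factor of the inner root sheath and epidermis, was at 461 and 538 CPM against 202 and 252 (1.14, SE 0.25, adjusted p = 0.0703). Among 15 measured genes of the inner root sheath and hair shaft 8 fell and 7 did not pass, all 15 with fold changes below 0, with summed levels of 515 and 235 CPM against 3080 and 1579, and Tchh, a structural protein gene of the inner root sheath, had a log2 fold change of -2.51 (adjusted p = 0.0499), a call lost in 6 of the 12 alternatives. Basal keratinocyte markers overlapped between the groups, with 0 of 8 called and a median of 0.19.

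**Figure D5:**
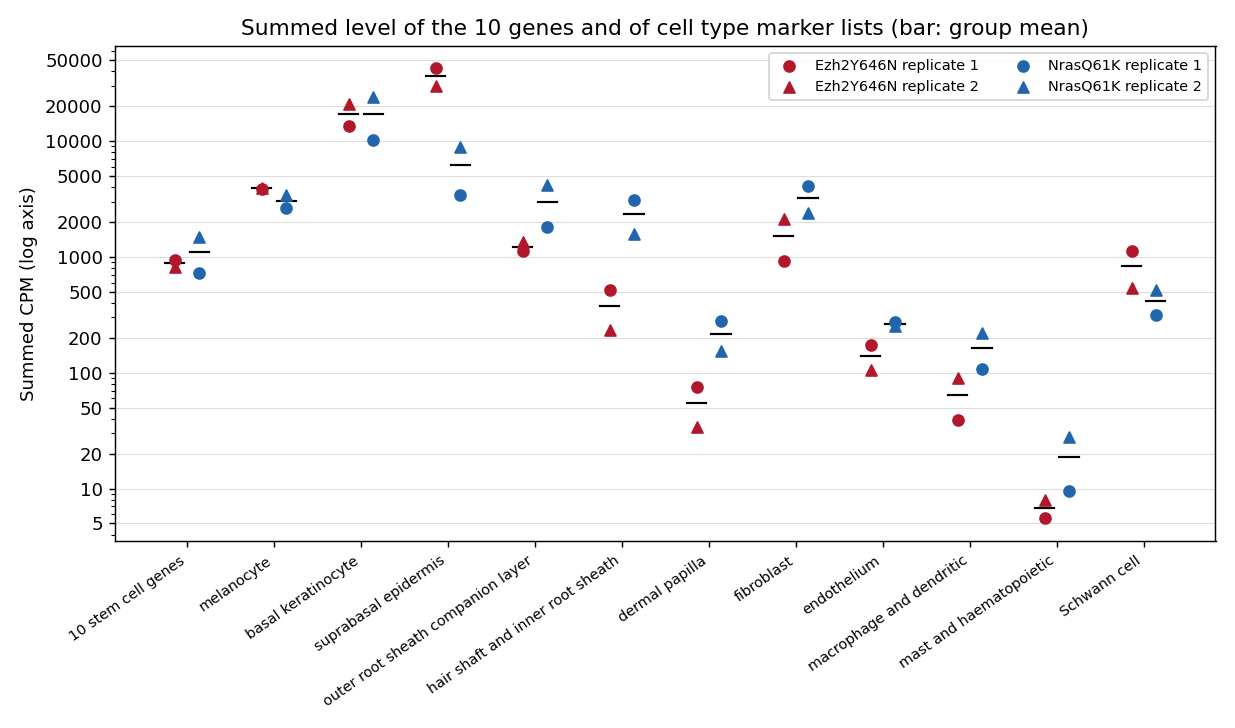
Summed CPM on a log axis of the 10 stem cell genes and of 11 marker lists, with 1 point per library and a bar at each group mean. The sum of the 10 genes, 945 and 817 CPM in the Ezh2Y646N libraries and 728 and 1488 in the NrasQ61K libraries, overlaps between the groups. The basal keratinocyte list overlaps too. The suprabasal, melanocyte and Schwann cell lists are higher in both Ezh2Y646N libraries. The companion layer, hair shaft, dermal papilla, fibroblast, endothelium, macrophage and mast cell lists are lower in both.

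The other marker lists gave these values. Krt17, the most abundant gene of the companion layer list, had a log2 fold change of -0.98 (edgeR's adjusted p = 0.34), and 2 of that list's 4 genes fell. Of the 9 macrophage and dendritic cell genes 0 were called and all were below 0, with a median of -1.44 and H2-Ab1 at 13.9 and 47.3 CPM against 41.4 and 101. Of the 8 Schwann cell genes 1 rose and 7 were above 0, with a median of 1.89, while Egr2 had a log2 fold change of -0.80. Of the 8 pericyte and smooth muscle genes 1 fell, with a median of 0.07 and Cspg4 at 0.31, and of the 6 skeletal muscle genes 0 were called, with a median of 0.58 and Acta1 at 0.68. In the melanocyte list 0 of 10 passed and the median was 0.23, with Tyr at 0.44. The most abundant genes of the dermal papilla, fibroblast and endothelium lists were Vcan (-1.76), Col1a1 (-1.13) and Plvap (-1.20), none past the threshold.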

How the data were processed

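Per the file headers, the authors deposited read counts per Ensembl gene for 4 libraries, whole numbers with no normalization. Tools in the submitters' processing notes are STAR 2.5.4b, featureCounts, Trimmomatic, bcl2fastq 2.19 and edgeR, with build GRCm38 and no stated order. The sources used here give neither annotation release, strand setting nor gene filter. Symbols, positions and exon lengths came from GENCODE M21 on GRCm38, which matched 22291 of 22524 identifiers.

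The test was edgeR's (version 4.0.16, R 4.3.3), after filterByExpr (minimum counts of 10, and of 15 over all libraries) and TMM scaling. A robust quasi-likelihood fit had group as its term, and the Benjamini-Hochberg method adjusted p-values over the tested genes, at a threshold of 0.05. CPM used TMM-scaled library sizes, and RPKM the union of annotated exons. The SE is the fold change over the root of its F statistic. Log2 fold changes are Ezh2Y646N over NrasQ61K. The likeness measure was the Euclidean distance of log2(CPM + 1), centred per gene. The code was tested on simulated data, where it recovered the fold sizes but made a larger share of false calls than the threshold allows. Calls in general are therefore less certain than the threshold states, and those with an adjusted p near 0.05 are uncertain. Alternatives were RLE size factors, other filters, DESeq2 1.42.0, limma 3.58.1 voom, a fit that was not robust, a replicate block, removal of small RNA, haemoglobin and mitochondrial genes, and each library left out. A group with a library left out has no spread of its own, so calls in those fits rest on the other group's spread.

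Libraries of a group were not copies: chi-square over degrees of freedom, where counting noise alone gives about 1, was 40.2 (Ezh2Y646N) and 87.8 (NrasQ61K). The members and lists were chosen with earlier results of these data known. Genes were named by rule: the 10 members, Ezh2, Nras and Tyr, each pathway list's called genes or its 2 of smallest p, the most abundant gene of each marker list, and the 3 genes most like a called member. Lgr4, Rspo2, Rspo3, Znrf3, Rnf43, Krt15, Krt79, Grem1, Rcan1, Ppp3ca, Ppp3cb, Ppp3cc, Cd3e and Fcer1a were named after their values were seen. Of the listed marker genes, Calml5 and Krt85 were not analysed here.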

Additional observations from a re-analysis of the deposited data

How the results depend on the processing

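Under the 12 alternatives the 10 genes gave 100 values with the same direction and call as the main fit out of 120, 11 that newly passed the threshold, 4 that lost a call (all Cd34) and 5 of the opposite sign. The last were Lgr5 and Lhx2, whose ranges with each library left out were -0.37 to 0.73 and -0.16 to 0.56, and Foxc1 and Tbx1, at -1.15 to 0.83 and -0.77 to 0.02. The same ranges were -0.55 to 0.59 for Ezh2, -0.22 to 0.06 for Nras, -0.50 to 0.77 for Krt5 and -0.02 to 0.78 for Cspg4. The sign of Krt5, near 0, was positive with RLE size factors and DESeq2 (0.00 each), in voom (0.10) and with the replicate block (0.08).

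Of the 10 genes, 0 were higher and 1 lower. With RLE size factors and in voom 0 were lower. DESeq2, no filter and the replicate block each gave 1 higher and 2 lower, and the stricter filter 1 higher and 1 lower. With each library left out, 0 to 1 were higher and 0 to 3 lower. Their median ran from -0.58 to 0.29 with each library left out.

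Of all 14265 genes tested, 157 were higher and 96 lower. Of 18725 genes, DESeq2 gave 505 and 378, and the fit with no filter 686 and 616. Of 14265 genes, the replicate block gave 710 and 627, and voom 150 and 64. The stricter filter gave 175 and 108 of 13671. With each library left out, 49 to 730 were higher and 43 to 393 lower. The labels do not say what a replicate number shares, and deviations of same-numbered libraries correlated at 0.108. The cause of these differences was not tested. Precision is limited by 2 libraries a group, which leave 2 residual degrees of freedom.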
